A study of Mus musculus with 8 samples.

Results

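The 10 CC chemokines described here are Ccl2, Ccl3, Ccl4, Ccl5, Ccl7, Ccl8, Ccl12, Ccl17, Ccl22 and Ccl24, chosen by symbol from the 32227 genes of the count tables. Chemokines are small secreted proteins that bind G protein-coupled receptors and direct the movement of leukocytes, and the CC family carries a pair of adjacent cysteines near its start. Ccl2, Ccl7 and Ccl12 act mainly on Ccr2, which brings monocytes out of the bone marrow and into tissue. Ccl3 and Ccl5 act on Ccr1, Ccl17 and Ccl22 on Ccr4 of T-cells and dendritic cells, mouse Ccl8 on Ccr8, and Ccl24 on Ccr3 of eosinophils. In the brain, microglia and the macrophages of the meninges and perivascular spaces are known sources, and several of these genes are also known to be switched on by tissue handling.

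The cells came from the brains of male C57Bl/6J mice aged 5 to 6 months by the labels (the study's methods give another age range), 24 h after 1 intraperitoneal injection of lipopolysaccharide (LPS, a bacterial endotoxin) at 15000000 EU/kg or of sterile saline. Brains were dissociated with enzymes in the presence of DMSO alone or of inhibitors of transcription and translation (actinomycin D, triptolide and anisomycin), and CD45+ cells were then selected with magnets. The 4 groups are saline with DMSO, saline with inhibitors, LPS with DMSO and LPS with inhibitors, each with 2 libraries numbered 1 and 2 by capture day, and each library is 1 mouse. The brains were not perfused, so blood leukocytes within vessels are among the cells, and all 8 libraries share the enzymatic dissociation and the selection. Where 8 values stand in a sentence they follow saline DMSO 1 and 2, saline inhibitors 1 and 2, LPS DMSO 1 and 2 and LPS inhibitors 1 and 2. Levels are in CPM, a gene's UMIs per 1000000 UMIs of the same class and library.

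Libraries held from 90352359 to 141182123 unique molecules (UMIs), and from 12039 to 17364 barcodes per library had at least 800 and under 45000 UMIs, at least 250 and under 6500 genes and under 5% mitochondrial UMIs. The 28 pairs of libraries shared from 0 to 25 of these barcodes. A gate on 10 marker genes per class, none of them one of the 10 chemokines, placed 105571 of 119053 cells in a class, with 102120 immune and 3451 non-immune cells. Microglia (90295 cells) and macrophages (3823 cells, from 251 to 851 per library) were the classes with most cells, followed by monocytes (3309) and neutrophils (1788). In both microglia and macrophages the median summed level of the class's own markers was lower with LPS, at 7574 against 37061 CPM in microglia and 5805 against 16048 in macrophages. Saline libraries held 8 to 27 cells gated as dendritic cells. Where there were at least 10 of them (12 to 27), choroid plexus markers summed to a higher median level (3854 CPM) than their own (2658). Choroid plexus markers were also the next highest list in saline microglia (5991 CPM) and macrophages (6125), so that level is not particular to the dendritic gate. The saline values of these few cells are given by the gate and not as a cell type. With LPS the dendritic gate's own markers summed to a median of 2798 CPM, and microglial markers came next at 1301. A stricter gate, asking for 1 more marker, kept 29, 11, 9 and 13 of its 75, 23, 28 and 34 LPS cells. In saline libraries it kept 8, 5, 22 and 15 of 12, 8, 27 and 18. Median depth was 2207 to 3161 UMIs per cell in saline and 4149 to 4762.5 in LPS libraries.

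Promoter sequence is shown for the 2 pairs of genes from the same chromosome region on which the comparisons below turn, Ccl12 with Ccl8 and Ccl17 with Ccl22. The RefSeq table (GRCm38.p6) held the 250 bases before the start site of 5 of the 10 genes, namely Ccl3, Ccl8, Ccl12, Ccl17 and Ccl22. Ccl12 (chr11:82101595-82101844, plus strand) and Ccl8 (chr11:82114935-82115184, plus strand) lie side by side in the cluster of Ccr2-type ligands, and Ccl17 (chr8:94810203-94810452, plus strand) and Ccl22 (chr8:94745434-94745683, plus strand) lie on another chromosome. Capitals mark the matches to the motifs searched, each sequence ending 1 base before the start site.
Ccl12: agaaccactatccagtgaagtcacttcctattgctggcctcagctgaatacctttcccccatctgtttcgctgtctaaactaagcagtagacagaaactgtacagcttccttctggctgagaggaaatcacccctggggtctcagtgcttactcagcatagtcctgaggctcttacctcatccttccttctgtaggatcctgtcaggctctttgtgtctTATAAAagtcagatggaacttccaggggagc
Ccl8: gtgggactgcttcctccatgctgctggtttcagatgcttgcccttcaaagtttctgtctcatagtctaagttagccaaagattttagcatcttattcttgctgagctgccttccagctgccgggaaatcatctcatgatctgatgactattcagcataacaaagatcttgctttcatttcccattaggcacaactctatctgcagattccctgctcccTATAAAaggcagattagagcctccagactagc
Ccl17: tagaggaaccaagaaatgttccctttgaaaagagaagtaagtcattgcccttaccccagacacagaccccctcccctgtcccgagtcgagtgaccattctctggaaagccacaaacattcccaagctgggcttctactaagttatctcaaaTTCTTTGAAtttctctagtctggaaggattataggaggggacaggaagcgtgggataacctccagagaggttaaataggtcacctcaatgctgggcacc
Ccl22: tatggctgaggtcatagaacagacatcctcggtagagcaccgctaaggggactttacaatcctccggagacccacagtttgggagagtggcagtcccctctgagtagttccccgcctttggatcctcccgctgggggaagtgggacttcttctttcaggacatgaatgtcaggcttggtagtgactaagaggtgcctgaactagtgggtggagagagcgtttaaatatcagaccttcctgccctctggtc

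Of the 10 pairs among these 5 promoters, Ccl8 and Ccl12 had the highest identity in a global alignment, 57.5% over 266 columns, against 46% to 52.6% in the other pairs. Both hold TATAAA on the gene's own strand, at -31 in Ccl12 and at -32 in Ccl8, a motif found in 13% of 27025 promoters of the same length. Ccl17 holds a match to the STAT motif TTCNNNGAA (TTCTTTGAA from -99 to -91), which 7.18% of promoters hold. Both strands were also searched for an NF-kappaB motif (4.6% of promoters), TGANTCA (AP-1, 6.87%), an interferon response element (3.04%), TGACGTCA (CRE, 1.62%) and TTGCNNAA (C/EBP, 9.55%), and these letters are not in the 5 windows. TATAAA and TTCNNNGAA are not in the windows of Ccl22 and Ccl3 either, and the matches shown do not overlap each other. A match is a description of letters and not of a bound factor.

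The first question was which cells held these transcripts. In saline libraries, macrophages were 4.97% of the gated cells and held 87.0% of the Ccl7, 93.9% of the Ccl8, 59.0% of the Ccl2 and 56.0% of the Ccl24 UMIs of all gated cells. Most of these Ccl2 UMIs came from the DMSO libraries, with 4104 and 1144 in macrophages against 2087 and 995 in microglia. Macrophages also exceeded microglia in saline inhibitors 2 (217 against 160) but not in saline inhibitors 1 (200 against 348). Microglia, 84.3% of the gated cells, held 84.5% of Ccl3, 85.0% of Ccl4 and 79.0% of Ccl12. Ccl5 lay mainly in natural killer (NK) cells and T-cells, which held 44.2% and 36.9% of its UMIs while making up 0.481% and 1.09% of the cells. With LPS these places shifted. Microglia then held 86.4% of Ccl2, 98.6% of Ccl3, 98.4% of Ccl4, 94.7% of Ccl5 and 99% of Ccl12, at 86.8% of the cells. Ccl7 was spread over microglia (37.4%), macrophages (35.4%) and monocytes (23.6%), and Ccl8 stayed mainly in macrophages (73.8%). Dendritic cells, 0.307% of the gated cells of LPS libraries, held 50.1% of Ccl17 and 50.7% of Ccl22. These shares join the number of cells and the level per cell, and fewer cells of a class and less RNA per cell cannot be told apart in them.

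**Figure D1:**
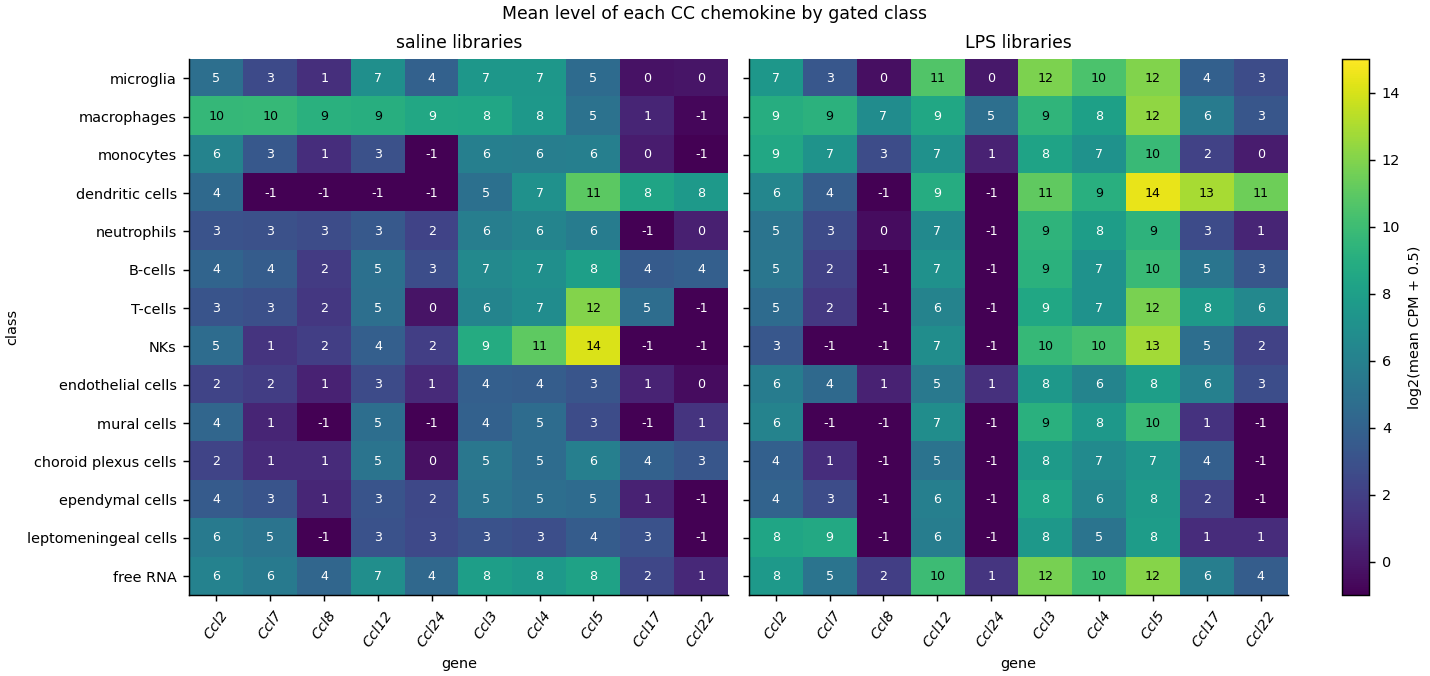
Mean level of the 10 genes in each gated class, as log2 of mean CPM plus 0.5, over the saline libraries (left) and the LPS libraries (right), with the rounded log2 value printed in each cell and the free RNA of the libraries (barcodes with 1 to 99 UMIs) in the bottom line. Ccl8 stands out in macrophages under both treatments, Ccl17 and Ccl22 in the dendritic gate, and Ccl5 in NKs with saline and in the dendritic gate with LPS.

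The second question was how the endotoxin changed each gene. In microglia all 10 genes passed the test of LPS against saline (edgeR, adjusted p under 0.05 over all genes tested), 8 higher and 2 lower. In that comparison 57.8% of the 22295 genes tested were called, 27.3% higher and 30.4% lower. The median log2 fold change of the 10 genes was 4.30, and that of all genes was -0.21. In macrophages 9 of the 10 genes had enough counts and 6 passed, 4 higher and 2 lower, where 47.4% of 9861 genes were called (22.9% higher and 24.5% lower), and the median was 0.54 against -0.06 for all genes. The log2 fold changes below rest on the trimmed mean (TMM) scaling of edgeR. Scaling by total UMIs alone moved the median of all genes from -0.21 to -0.99 in microglia and from -0.06 to -0.42 in macrophages, and the split of calls from 6097 higher and 6782 lower to 2844 and 14592 in microglia, and from 2255 and 2419 to 1349 and 3953 in macrophages. With either scaling 10 members were called in microglia and 6 in macrophages.

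**Figure D2:**
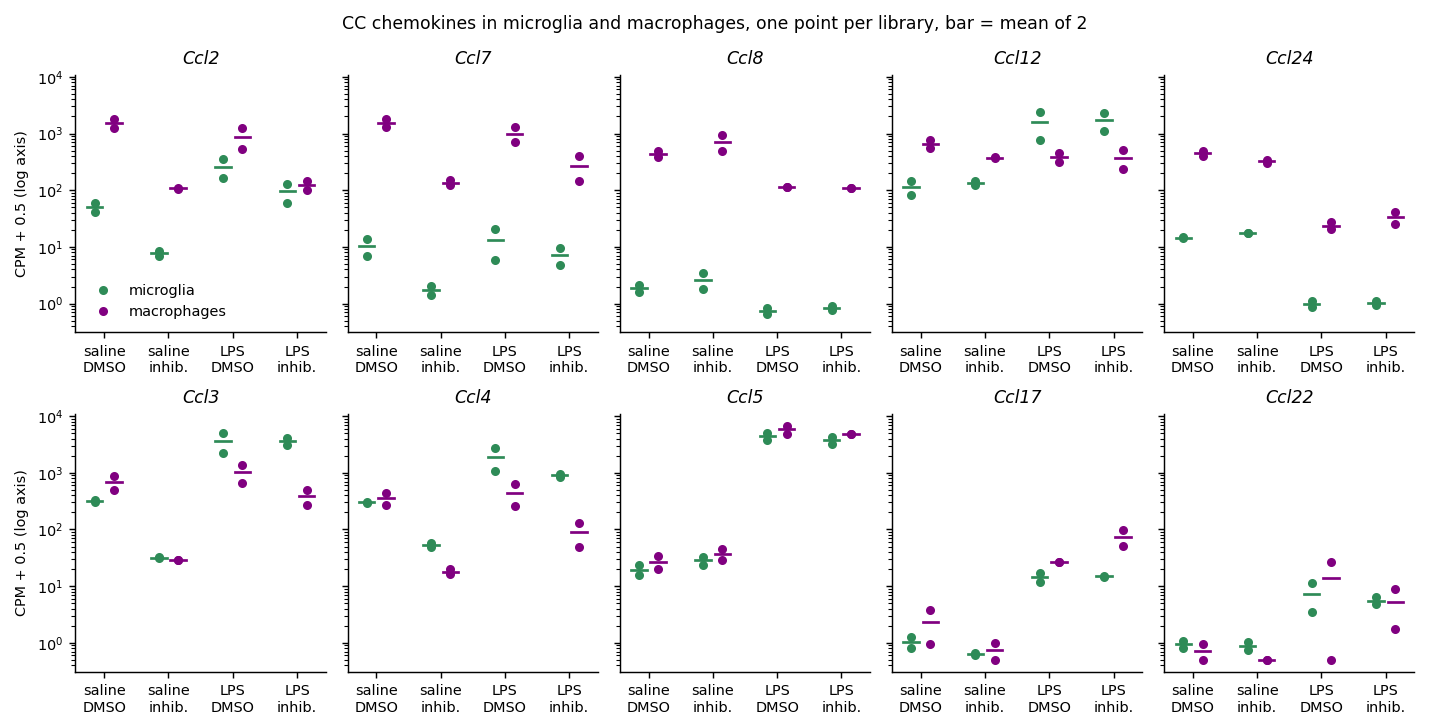
Level of each gene in microglia and macrophages in the 8 libraries, as CPM plus 0.5 on a log axis, with 1 point per library and a bar at the mean of the 2 libraries of a group. Ccl5 is higher with LPS in every library of both classes, Ccl24 is lower, and Ccl2, Ccl3, Ccl4 and Ccl7 of macrophages are higher with DMSO than with inhibitors under saline.

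Ccl2 is the ligand most closely tied to monocyte recruitment. In microglia it measured 59.9, 41.0, 7.88, 6.52, 361, 161, 130.2 and 60.0 CPM. The LPS libraries all lay above the saline libraries, by 3.80 ± 0.27 on the log2 scale (± SE, here and below, edgeR adjusted p = 1.8e-07), though LPS inhibitors 2 exceeded saline DMSO 1 by little. Within each treatment the DMSO libraries lay above the inhibitor libraries, and over all libraries DMSO was higher by 2.11 ± 0.25 (adjusted p = 0.0012). In macrophages Ccl2 measured 1827, 1233, 105, 110.4, 1233, 530.5, 99.7 and 146 CPM. There the saline and LPS libraries overlapped throughout, with a change of 0.04 ± 0.23 (adjusted p = 0.90) whose sign turned negative under 6 of the other settings tried. By contrast the DMSO libraries, at 1206 ± 530.1 (SD, n = 4), did not overlap the inhibitor libraries, at 115 ± 20.8 (SD, n = 4), a difference of 3.35 ± 0.24 (adjusted p = 3.7e-07). In monocytes Ccl2 rose from 71.0 ± 70.6 to 392 ± 118 CPM (SD, n = 4 each) without overlap, by 2.94 ± 0.37 on the log2 scale, and saline DMSO 1 (177) stood above the other saline libraries (31.1 to 45.1).

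Ccl7, which shares Ccr2 with Ccl2, had its highest mean level in macrophages under both treatments, though with LPS the ranges overlapped those of leptomeningeal cells and monocytes. Monocytes exceeded macrophages in LPS inhibitors 1 and leptomeningeal cells did in LPS inhibitors 2. Ccl7 measured 1779, 1280.3, 123, 149, 1298, 698, 145 and 395 CPM in macrophages. As for Ccl2, the libraries separated by the dissociation and not by the injection, with 1264 ± 443 in DMSO and 203 ± 129 in inhibitor libraries (SD, n = 4), a log2 difference of 2.70 ± 0.28 (adjusted p = 2.2e-05). The change with LPS was 0.54 ± 0.27 (adjusted p = 0.11), and with capture day as a block the same difference passed the threshold (0.53, adjusted p = 0.0394). Without LPS DMSO 2, LPS inhibitors 1 or saline inhibitors 2 it also passed (0.72, 0.85 and 0.69), as it did with no filter on low counts (0.47, adjusted p = 0.026). In microglia Ccl7 was low, at 13.1, 6.46, 1.54, 0.938, 20.1, 5.35, 9.24 and 4.21 CPM. The saline and LPS ranges overlapped on this scale, while the fitted change was 2.15 ± 0.37 (adjusted p = 0.00033) and 1.39 with scaling by total UMIs. DMSO was higher than inhibitors by 1.91 ± 0.37 in microglia, which missed the threshold (adjusted p = 0.059) and passed with the block (1.88, adjusted p = 0.000777), with RLE scaling, with no filter, with free RNA subtracted and without any 1 of 5 libraries (1.72 to 2.23). In monocytes it went from 35.3, 4.45, 1.43 and 0 to 119.6, 69.5, 342 and 56.0 CPM, with no overlap and a change of 5.31 ± 0.80.

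Ccl12, the third Ccr2 ligand, rose in microglia and did not pass the test in macrophages. Microglial values were 80.5, 144, 123, 143, 2372, 782, 2320.2 and 1119 CPM. Every LPS library exceeded every saline library, by 4.47 ± 0.39 on the log2 scale (adjusted p = 1e-06). Macrophage values were 758, 552, 381, 370.5, 312, 451, 237 and 508, overlapping and with a change of -0.03 ± 0.22 (adjusted p = 0.93). In LPS DMSO 2, 186 of the 340 Ccl12 UMIs of macrophages came from 1 cell. Between DMSO and inhibitors Ccl12 passed in neither class, with -0.19 in microglia (adjusted p = 1.0). Monocytes rose from 10.1, 11.1, 5.72 and 2.65 to 166, 62.4, 229 and 98.2 CPM (4.41 ± 0.47). No Ccl12 UMI was found in the saline cells gated as dendritic, and the LPS libraries had 231, 37.6, 796 and 848 CPM there, so no fold is given.

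Ccl8, the neighbour of Ccl12 shown above, fell in both classes. Macrophages measured 379.7, 490.3, 484, 932, 114, 115, 107 and 107 CPM. The 4 LPS libraries lay within a narrow range below all saline libraries, 111 ± 4.39 against 571 ± 246 (SD, n = 4), a fall by 1.99 ± 0.22 on the log2 scale (adjusted p = 1.8e-06). The UMIs sat in few cells, with the top 1% of macrophages holding 27.1% to 59.0% of Ccl8 UMIs in saline libraries and up to 234 UMIs in 1 cell. In microglia it measured 1.61, 1.11, 1.29, 3.02, 0.163, 0.326, 0.258 and 0.404 CPM, from 27 to 74 UMIs per saline library and 11 to 31 per LPS library. The 2 ranges did not overlap and the fitted change was -1.82 ± 0.38 (adjusted p = 0.0013), a call that was lost (-0.43, adjusted p = 0.32) when the cells that met no gate were added to the microglia. In LPS libraries microglial Ccl8 amounted to 5.52% to 14.5% of its level in free RNA, and that of macrophages to 2147% to 3858%. The part of free RNA in the microglial value was not tested beyond the subtraction given below. DMSO and inhibitors did not separate, at -0.64 in microglia (adjusted p = 1.0).

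Ccl24, an eosinophil attractant, fell most among the members. In macrophages it measured 397, 497, 345, 297, 19.9, 26.5, 41.5 and 24.9 CPM. In microglia it measured 13.6, 14.3, 16.9, 17.0, 0.384, 0.609, 0.601 and 0.430. Both classes separated without overlap, with falls by 3.43 ± 0.20 (adjusted p = 1.1e-09) and 4.18 ± 0.19 (adjusted p = 4.7e-09) on the log2 scale. The replicate spread in the microglia was small, 15.4 ± 1.75 in saline and 0.506 ± 0.116 in LPS libraries (SD, n = 4), and DMSO against inhibitors did not pass (-0.21, adjusted p = 1.0).

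Ccl3 and Ccl4 are inflammatory chemokines and among the first transcripts of activated microglia. Ccl3 measured 333, 309.6, 31.3, 31.8, 5029, 2257, 3065 and 4087 CPM in microglia. The LPS libraries lay above the saline libraries by 5.94 ± 0.32 (adjusted p = 2.1e-08). Among the saline libraries DMSO exceeded inhibitors by 3.31 ± 0.40 (adjusted p = 0.0032), whereas among the LPS libraries the groups overlapped and the difference was -0.05 ± 0.37. The test of that contrast, the LPS change with DMSO minus that with inhibitors, gave -3.36 ± 0.54 with an adjusted p of 0.14 in microglia. The same quantity was -3.18 ± 0.52 (adjusted p = 0.099) in macrophages, so neither class passed, where 0.0224% and 0% of genes were called. The same test passed in B-cells for Ccl3 (-5.38 ± 0.65) and Ccl4 (-5.24 ± 0.87, with 0.052% of genes called), in endothelial cells for Ccl3 (-3.88 ± 0.55, with 0.0666% called) and in ependymal cells for Ccl3 (-5.01 ± 0.77, with 0.0396% called). Total-UMI scaling, the block and no filter on low counts raised these 4 calls to 7 or more, the last of these by most. Removing cells by their Scrublet score lowered them to 2, and leaving out saline DMSO 1 or LPS DMSO 1 also moved the number.

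Ccl4 in microglia measured 310.0, 294, 49.6, 56.2, 2743, 1072, 844 and 947 CPM. It was higher with LPS by 4.13 ± 0.29 (adjusted p = 1.8e-07), and the DMSO libraries stood above the inhibitor libraries within each treatment, by 1.75 ± 0.27 over all (adjusted p = 0.0086). LPS DMSO 1 stood well above the other 3 LPS libraries. Taken within DMSO libraries alone, the LPS change of microglia was 3.14 for Ccl2, 4.26 for Ccl3, 3.41 for Ccl4 and 8.60 for Ccl5. Within inhibitor libraries alone it was 4.45, 7.62, 4.86 and 7.80 for the same genes in that order, all past the threshold, where 42.7% of genes were called among DMSO and 44.7% among inhibitor libraries. The ratio of Ccl4 to Ccl3 UMIs in microglia was 0.932, 0.950, 1.59 and 1.77 in saline and 0.546, 0.475, 0.275 and 0.232 in LPS libraries. It fell without overlap, by 1.81 on the log2 scale (exact permutation test, two-sided, p = 0.0286, the smallest that 4 against 4 libraries allow), and by 0.90 in macrophages (exact p = 0.0286). Within treatments the microglial ratio lay lower in DMSO than in inhibitor libraries with saline and higher with LPS, without overlap in either, a pattern that was not tested. The ratio in free RNA moved the same way, from 0.805, 0.753, 0.499 and 1.11 to 0.469, 0.407, 0.211 and 0.182.

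In macrophages Ccl3 measured 889.7, 499, 27.9, 29.0, 1373, 658, 272 and 507 CPM, and Ccl4 measured 439, 273, 19.5, 15.8, 638, 256, 48.7 and 131. With LPS Ccl3 rose by 2.51 ± 0.26 (adjusted p = 1e-06) and Ccl4 by 1.69 ± 0.31 (adjusted p = 0.00026), although the ranges overlap, with the saline DMSO libraries above some LPS inhibitor libraries. Among inhibitor libraries the change was 4.10 for Ccl3 and 2.68 for Ccl4 (32.7% of genes called). Among DMSO libraries it was 0.92 (adjusted p = 0.049) and 0.70 (adjusted p = 0.17, with 32.1% of genes called), and for Ccl3 the difference between these did not pass its own test as given above. Fitted with the injection as the only term, neither gene passed in macrophages (1.33, adjusted p = 0.18, and 0.90 for Ccl4, adjusted p = 0.39). DMSO exceeded inhibitors by 3.01 ± 0.27 for Ccl3 and 3.35 ± 0.31 for Ccl4 (adjusted p = 4.5e-06 and 6.3e-06).

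Ccl3 also rose with LPS in neutrophils and monocytes. Neutrophils went from 94.8, 94.1, 9.38 and 29.2 to 1152, 617, 449 and 453 CPM (3.96 ± 0.33). Monocytes went from 141, 71.1, 15.7 and 5.30 to 444, 217, 302 and 274 (3.34 ± 0.30). By share of cells with a Ccl3 UMI, monocytes did not exceed both B-cells and endothelial cells in 3 of the 4 LPS libraries, nor neutrophils in 1, as given with the shares. Both classes separated without overlap in the Ccl3 level, while Ccl4 of monocytes overlapped (192, 26.7, 4.29 and 7.95 against 286, 95.6, 131 and 65.7) at a fitted change of 2.74 ± 0.55. NKs are known to carry both transcripts at rest, and there Ccl4 fell, from 2087 ± 460.2 to 1227 ± 145 CPM (SD, n = 4), by 0.76 ± 0.18 on the log2 scale (adjusted p = 0.0074). That fall was lost with a stricter gate (-0.26, adjusted p = 0.627), with no filter on low counts (-0.63, adjusted p = 0.072), with Scrublet removal (-0.56, adjusted p = 0.087) and without saline inhibitors 1 (-0.57, adjusted p = 0.0602). The LPS change of Ccl3 in NKs was 0.94 on the log2 scale (adjusted p = 0.064).

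Ccl5, a late gene of T-cells and NKs and an interferon-responsive gene of myeloid cells, had the largest rise of the 10 in microglia and macrophages. Microglia measured 15, 22.7, 23.5, 32.5, 3791, 4980.2, 4331 and 3165 CPM. Macrophages measured 19.6, 33.4, 45.3, 28.5, 4842, 6813, 4784 and 4737. Every LPS library lay far above every saline library in both, with log2 fold changes of 8.20 ± 0.33 (adjusted p = 2.4e-09) and 7.79 ± 0.27 (adjusted p = 7.2e-12), and DMSO and inhibitors did not separate (-0.20 in microglia, adjusted p = 1.0). In NKs the direction was the opposite. They measured 13516, 15858, 24571 and 16243 CPM of Ccl5 with saline and 5743, 6612, 8224 and 8056 with LPS, a fall by 1.28 ± 0.14 (adjusted p = 6.3e-06) without overlap. T-cells overlapped, at 2012, 3378, 5668 and 5352 against 2463, 4321, 3117 and 4037 (-0.00 ± 0.21, adjusted p = 1.0). Monocytes (4.48 ± 0.28) and neutrophils (3.81 ± 0.38) rose.

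Ccl17 and Ccl22 share Ccr4 and are known products of migrating dendritic cells. In cells gated as dendritic, Ccl17 measured 79.5, 0, 158 and 747 CPM with saline and 5709.8, 8569, 5809 and 10162 with LPS. Ccl22 measured 0, 108, 52.8 and 546, then 2708, 4153, 1372 and 2953. Both separated without overlap, by 5.41 ± 0.58 (adjusted p = 2.9e-06) and 7.42 ± 1.02 (adjusted p = 4.2e-05), in a fit that dropped saline DMSO 2 for its 8 cells. The LPS libraries held 23 to 75 such cells. The makeup of the gate moved with the treatment. Xcr1 and Clec9a, markers of cross-presenting dendritic cells, measured 158 to 269 and 129 to 284 CPM with saline, and 0 and 0 to 14.7 with LPS, while Fscn1, a marker of mature migrating cells, went from 59.6 to 1184 up to 935 to 3036. Its part in the change of Ccl17 and Ccl22 was not tested.

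Outside the dendritic gate both genes had lower mean levels. T-cells came next in LPS libraries, at a mean of 214 CPM of Ccl17 and 87.2 of Ccl22. Microglia had 0.316, 0.782, 0.158 and 0.122 CPM of Ccl17 with saline and 11.3, 16.6, 14.1 and 14.7 with LPS, from 3 to 19 UMIs per saline library to 762 to 1131 per LPS library. The change was 6.46 ± 0.28 (adjusted p = 4.2e-09). Ccl22 in microglia went from 0.316, 0.576, 0.249 and 0.530 to 2.95, 10.7, 4.26 and 5.86, by 4.67 ± 0.47 (adjusted p = 3.2e-06). In LPS libraries the 1% of microglia with most Ccl22 held 74.2% to 91% of it, and 1 cell held 160 of the 492 UMIs of LPS DMSO 2. These were 200 to 492 UMIs per library set against 89 to 129 such cells, so low counts alone raise this share. Neither pair of ranges overlapped, and neither gene passed between DMSO and inhibitors (Ccl17 0.85 and Ccl22 0.29, adjusted p = 1.0 for both). Ccl17 of macrophages rose by 6.32 ± 0.46, from 0.445, 3.23, 0 and 0.509 to 26.5, 26.5, 97.3 and 51.1. Ccl22 fell under the count filter in macrophages, with 0, 20, 7 and 1 UMIs in the LPS libraries, and 19 of the 20 in LPS DMSO 2 came from 1 cell. With no filter it was called (5.55), and the filter also let it in without any 1 of 7 libraries (4.77 to 6.41), where it was called in all but the fit without LPS inhibitors 1 (4.77). Without LPS DMSO 2 it stayed under the filter. T-cells had no Ccl22 UMI in saline libraries and 27, 2, 15 and 33 UMIs in LPS libraries.

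**Figure D3:**
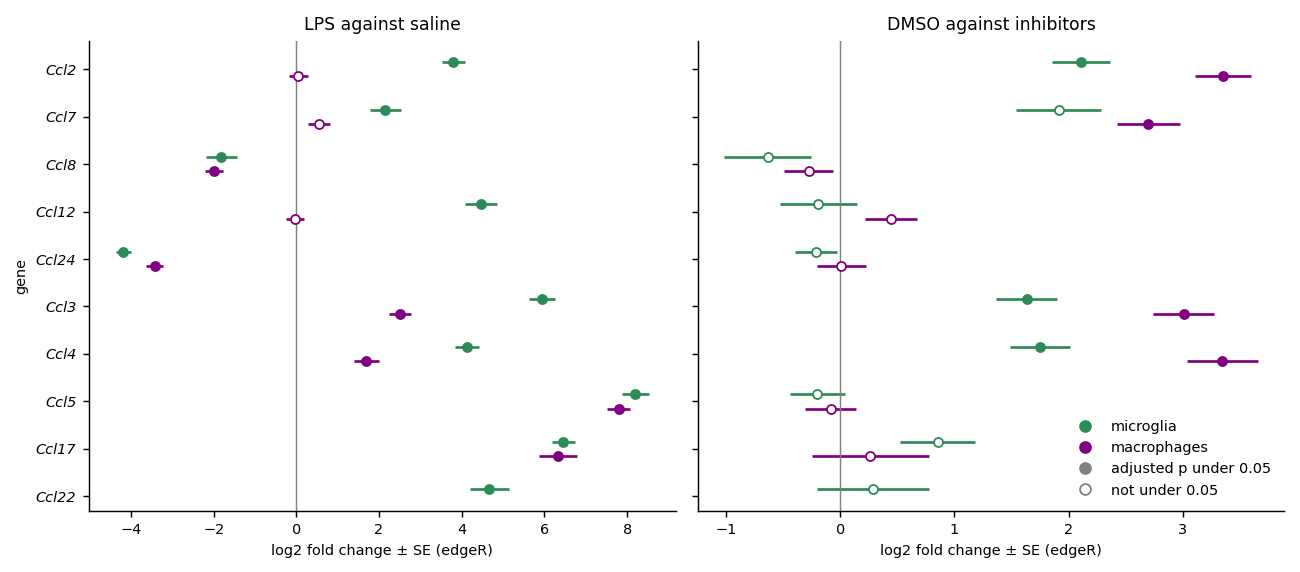
Log2 fold change with its SE for each gene in microglia and macrophages, for LPS against saline (left) and DMSO against inhibitors (right), edgeR over 4 against 4 libraries, with filled points where the adjusted p was under 0.05 and no point for Ccl22 in macrophages. With LPS, Ccl8 and Ccl24 lie below 0 in both classes, and with DMSO only Ccl2, Ccl3, Ccl4 and, in macrophages, Ccl7 are filled.

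The third question was which genes depended on inhibitors during dissociation. In microglia 3 of the 10 genes, Ccl2, Ccl3 and Ccl4, passed the test of DMSO against inhibitors, all higher with DMSO, where 0.413% of all genes tested were called. In macrophages 4 of 9 passed, the same 3 and Ccl7, where 0.588% of genes were called. The medians were 0.57 and 0.45 on the log2 scale, against -0.02 and 0.00 over all genes. Split by treatment, the 3 genes passed in the microglia of saline libraries (0.193% of genes called), with differences of 2.76 (Ccl2), 3.31 (Ccl3) and 2.47 (Ccl4), and none of the 3 passed edgeR's test in those of LPS libraries (0.336% of genes called). There Ccl2 differed by 1.45 (adjusted p = 0.22, unadjusted 0.00113), Ccl4 by 1.03 (adjusted p = 0.88, unadjusted 0.0164) and Ccl3 by -0.05 (adjusted p = 1.0, unadjusted 0.90). In macrophages all 4 passed within saline (0.568% of genes called), with 3.82 for Ccl2, 4.60 for Ccl3, 4.34 for Ccl4 and 3.48 for Ccl7, and 3 passed within LPS (0.325% called), with 2.89 for Ccl2, 2.35 for Ccl4 and 1.92 for Ccl7 but 1.42 (adjusted p = 0.20) for Ccl3. Without LPS inhibitors 1, Ccl3 and Ccl4 of microglia lost the call (1.48, adjusted p = 0.104, and 1.65, adjusted p = 0.082), and without LPS DMSO 1 Ccl3 did (1.29, adjusted p = 0.098). Ccl3 also lost it with additive terms (1.62, adjusted p = 1.0) and with the cells of no class added (1.34, adjusted p = 0.25).

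Immediate-early genes such as Fos, which respond within minutes to handling, moved with the same split. In microglia 13 of 14 in the list were higher with DMSO, at a median of 3.43, with Fos at 6.09 and Fosb at 5.73. In macrophages 13 of 14 were higher too, at a median of 3.48. Their summed level was 6341, 3906, 470, 419, 9088, 6188, 1023 and 803 CPM in microglia and 16892, 9456, 968, 865, 13683, 8589, 2070 and 1489 in macrophages. Of 10 NF-kappaB feedback genes 1 passed, Nfkbiz (1.21 in microglia and 2.29 in macrophages). Cells with a Fos UMI, thinned to 1500 UMIs each, held Ccl2 more often in saline DMSO macrophages, 60.0% and 58.1% of Fos-positive against 19.5% and 24.4% of Fos-negative cells. With saline and inhibitors these shares were 16.0% and 19.4% against 7.5% and 8.5%. With LPS they were 48.8% and 32.4% against 35.2% and 24.7% in DMSO, and 9.8% and 13.8% against 10.6% and 13.2% in inhibitor libraries. For Ccl3 and Ccl4 the saline DMSO shares were 40.0% and 28.1% against 14.5% and 24.4%, and 16.5% and 15% against 12.6% and 14.3%. Cells of a library are not replicates, and these shares carry no test.

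In other classes fewer members passed this comparison. Neutrophils had Ccl4 higher with DMSO (2.21, adjusted p = 0.045, with 0.143% of genes called), a call lost under 3 of the other settings (1.73 to 2.27) and without any 1 of 4 libraries (1.67 to 2.22). Ccl3 of neutrophils (1.60, adjusted p = 0.09) and Ccl3 and Ccl4 of monocytes (1.67, adjusted p = 0.073, and 2.51, adjusted p = 0.27, with 0.0969% of genes called) missed it and passed with capture day as a block, at 1.58, 1.68 and 2.53 and adjusted p of 0.00152, 0.000874 and 0.000215. Endothelial cells (0.0285% of genes called) had Ccl3 and Ccl4 at 2.27 and 2.19, choroid plexus cells (0.111%) at 2.26 and 2.73, and ependymal cells (0.145%) had Ccl3 at 2.54, all called. With free RNA subtracted, none of these calls in endothelial or choroid plexus cells was kept, while the values were 3.28 and 2.09 in endothelial and 2.70 and 3.27 in choroid plexus cells. Scrublet removal also ended both endothelial calls (2.06 and 2.31). Endothelial Ccl3 lost the call with additive terms (1.22) and Ccl4 without any 1 of 5 libraries (1.84 to 2.24). DESeq2 ended both choroid calls (2.18 and 2.60), where the values without saline DMSO 2 were 1.05 and 1.08. Choroid Ccl3 also lost the call with additive terms (1.78) and Ccl4 with the stricter gate (2.15). The ependymal call was lost with additive terms (1.78) and without saline inhibitors 2 (3.57).

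The change with LPS was next set against that of microglia, in 1 fit over both classes with the library as a block. In macrophages it was smaller for Ccl2 by 3.71 ± 0.17, for Ccl12 by 4.49 ± 0.20, for Ccl3 by 3.62 ± 0.19, for Ccl4 by 2.71 ± 0.19 and for Ccl7 by 1.61 ± 0.20 on the log2 scale, all called where 27.2% of genes were. The fit had no term for dissociation by class, and its SE does not carry the full spread between mice. For Ccl2 the log2 ratio of macrophages to microglia had an SD of 1.01 over LPS and 0.641 over saline libraries (n = 4 each). Over libraries, the log2 ratio of macrophages to microglia in each mouse separated without overlap for Ccl2, Ccl12, Ccl3 and Ccl4 (exact permutation, two-sided, p = 0.0286 each, the smallest possible and unadjusted, in 33 such tests of which none passed after adjustment) and not for Ccl7 (exact p = 0.229). For Ccl8 the difference in the fit was -0.20 (adjusted p = 0.65), and its ratio reached the smallest p with 0.5 CPM added to LPS microglial values of 0.163 to 0.404 CPM, so that nothing is read from it. Ccl12 lay above microglia in the macrophages of saline libraries (mean log2 ratio 2.04) and below in those of LPS libraries (-2.04). Ccl24 and Ccl5 passed in the fit at 0.76 ± 0.23 and -0.48 ± 0.17, and not by the exact test (p = 0.543 and 0.914). In monocytes Ccl7 rose more than in microglia, by 3.06 ± 0.58 (19.8% of genes called; exact p = 0.0286), and Ccl5 rose less, with a difference of -3.73 ± 0.35 (exact p = 0.0286). In neutrophils (17.6% of genes called), the dendritic gate (6.87%) and endothelial cells (31.7%) Ccl5 also rose less than in microglia, with differences of -4.37 ± 0.37, -2.81 ± 0.24 and -3.29 ± 0.32. The exact test over libraries gave p = 0.0286 for neutrophils and endothelial cells and p = 0.286 for the dendritic gate, where the 3 saline libraries with at least 10 cells ran from 59.6 to 5604 CPM. Free RNA was not subtracted in these fits, so its part in the neutrophil and endothelial differences was not tested. Endothelial cells serve below as a comparison for free RNA, and neutrophil Ccl5 shares lay below or near that comparison.

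Counted as cells rather than molecules, at 1500 UMIs per cell, 64.6% ± 4.89 of microglia held a Ccl5 UMI with LPS and 2.36% ± 0.275 with saline (SD, n = 4). Ccl3 was found in 73.4% ± 10.2 against 9.09% ± 8.26, Ccl12 in 42.4% ± 12 against 9.39% ± 1.56 and Ccl2 in 12.4% ± 5.78 against 2.26% ± 2.04. Without thinning, Ccl5 was found in 75.8% to 83.3% of microglia with LPS and 3.62% to 4.79% with saline. Thinning left out 367 to 1783 microglia and 30 to 248 macrophages per library as too shallow. In thinned microglia Ccl2, Ccl3, Ccl5 and Ccl12, and also Ccl4, Ccl8, Ccl17, Ccl22 and Ccl24, separated without overlap (exact permutation p = 0.0286), whereas Ccl7 did not (0.777% against 0.671%, exact p = 0.886). In macrophages Ccl5 was found in 87.5% ± 2.17 against 2.87% and Ccl24 in 3.54% ± 1.19 against 29.8% ± 2.63. By dissociation, Ccl2 was found in 41.8% ± 8.27 of macrophages with DMSO and 10.4% ± 2.09 with inhibitors, and Ccl7 in 35.3% ± 6.44 and 15.2% ± 4.91 (exact permutation p = 0.0286 for both). In all, 24 of 80 such tests reached that smallest p, unadjusted, and none of the 80 passed after adjustment. Shares over all genes were not computed, so this count has no background beside it. As the comparison for free RNA, 25.0% to 50% of B-cells and 23.1% to 33.3% of endothelial cells held a Ccl3 UMI in LPS libraries, and 30.6% to 50% and 25.6% to 35.1% a Ccl5 UMI, at median depths of 1938 to 2403 and 3074 to 4842.5 UMIs. Both classes had called changes of Ccl3 with LPS, but Ccl3 of free RNA rose too. It went from 14531, 9773, 4245 and 1185 UMIs to 145475, 49982, 64972 and 71125. Transcripts of these cells' own and free RNA cannot be told apart in these shares. A share at or below the higher of them in the same library is only not told apart from background. For Ccl3 this held for monocytes in 3 of the 4 LPS libraries (24.9% to 33.2%), all but LPS DMSO 1 (44.5%). Macrophages and neutrophils lay below it in LPS inhibitors 1, at 28.4% and 34.0% against 6 of 12 B-cells, and above it in the other 3, at 65.2%, 43.4% and 39.5% of macrophages and 62.8%, 40.1% and 40.8% of neutrophils. The Ccl5 shares of neutrophils (28.2% to 37.4%) lay below it in 3 libraries and within 1 percentage point of it in LPS DMSO 1. Those of microglia for both genes, and of macrophages, monocytes and NKs for Ccl5, lay above it in all 4.

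**Figure D4:**
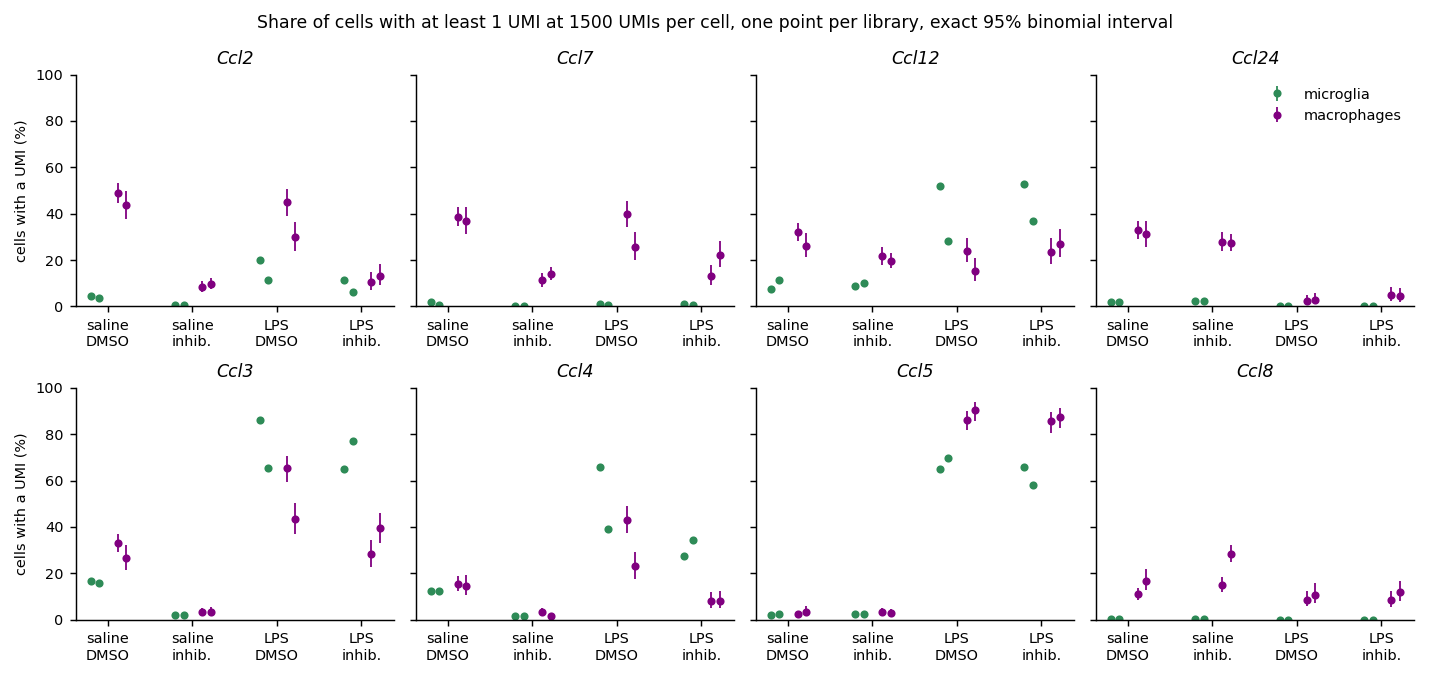
Percent of microglia and macrophages with at least 1 UMI of each of 8 genes after thinning to 1500 UMIs per cell, with 1 point per library and its exact 95% binomial interval, which covers counting error only. Ccl5 goes from a few percent to most cells with LPS in both classes, and Ccl2 and Ccl7 of macrophages follow the DMSO libraries.

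Transcripts were unevenly spread over cells. In saline libraries with inhibitors, the 1% of microglia with most Ccl3 held 76.5% to 78.2% of its UMIs and for Ccl4 88.9% to 89.5%, against 29.9% to 32.1% and 44.3% to 45.7% with DMSO. With LPS they held 7.8% to 14.3% of Ccl3. Genes of 1 pair were often in the same cell. Among microglia with a Ccl4 UMI, Ccl3 was present in 43.1% and 41.7% (saline DMSO) and 22.1% and 31.1% (saline inhibitors), against 13%, 12.1%, 1.6% and 1.5% of those without. Macrophages with Ccl7 held Ccl2 in 80.3% and 70.9% of cells in saline DMSO libraries, against 29.1% and 27.8% without Ccl7. In saline inhibitor libraries these were 21.4% and 19.0% against 6.74% and 8.09%. LPS inhibitors 1 went the other way in macrophages, with Ccl2 in 9.09% of Ccl7-positive and 10.6% of Ccl7-negative cells and Ccl3 in 20% of Ccl4-positive and 29.1% of Ccl4-negative cells. In LPS monocytes Ccl2 was present in 69.2%, 74.1%, 58.8% and 52.6% of Ccl7-positive and 20.1%, 19.7%, 13.8% and 13.5% of Ccl7-negative cells. Ccl8 and Ccl24 did not pair in this way in saline macrophages, where Ccl8 was present in 11.1%, 14.9%, 17.3% and 26.7% of Ccl24-positive and 10.8%, 17.7%, 14.1% and 29.2% of Ccl24-negative cells.

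Free RNA, taken as the barcodes with 1 to 99 UMIs and 15.5% to 33.7% of all UMIs, carried the same genes. In LPS libraries the Ccl3 level of endothelial cells was 4.57% to 8.26% of that in free RNA, that of monocytes 8.18% to 11.6% and that of neutrophils 13.5% to 27.5%. By haemoglobin transcripts, which these cells should lack, free RNA made up 1.80% to 4.48% of the UMIs of microglia over all libraries. Cells with a higher haemoglobin share than the free RNA itself were left out of this estimate. In LPS libraries free RNA made up 1.95% to 4.10% in monocytes, 1.01% to 4.25% in neutrophils and 0% to 3.5% in endothelial cells. The endothelial cells used had no haemoglobin UMI in LPS DMSO 2 (50 of 52 cells used) and LPS inhibitors 2 (43 of 47). Over all endothelial cells of LPS libraries, haemoglobin transcripts summed to a median of 8153 CPM. After subtracting the estimated free RNA, 10 of 10 LPS calls were kept in microglia, 6 of 6 in monocytes and 6 of 6 in endothelial cells. For endothelial cells of LPS DMSO 2 and LPS inhibitors 2 the estimate was 0, so nothing was subtracted there and the kept calls are no test of free RNA. Fewer LPS calls were kept in neutrophils (4 of 5), T-cells (3 of 4), NKs (2 of 3), ependymal cells (2 of 4), choroid plexus cells (1 of 3) and leptomeningeal cells (2 of 4). In the last Ccl2 and Ccl7 stayed called and Ccl3 and Ccl5 did not. For ependymal and choroid plexus cells the share of all genes called with LPS is not given here, so nothing is read from their counts. Leptomeningeal cells, fibroblast-like cells of the brain's coverings, had 15.1, 62.9, 52.4 and 11.4 CPM of Ccl7 with saline and 218, 426 and 540.1 in the 3 LPS libraries with at least 10 cells, a rise by 3.92 ± 0.51 where 22.1% of genes were called. Ccl2 rose there from 15.1, 142, 26.2 and 0 to 491, 179 and 335, by 3.82 ± 0.65. These sums held 12 to 29 cells per saline and 10 to 26 per LPS library used, and LPS with inhibitors rested on 1 library. Among endothelial cells (36.5% of genes called) 6 members rose, Ccl2 by 4.11 ± 0.56 and Ccl3 by 5.07 ± 0.24 among them. For Ccl2, LPS inhibitors 2 stood highest among the endothelial values with LPS, at 138 CPM from 40 UMIs in 47 cells, against 22.1, 7.39 and 41.2 in the others.

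**Figure D5:**
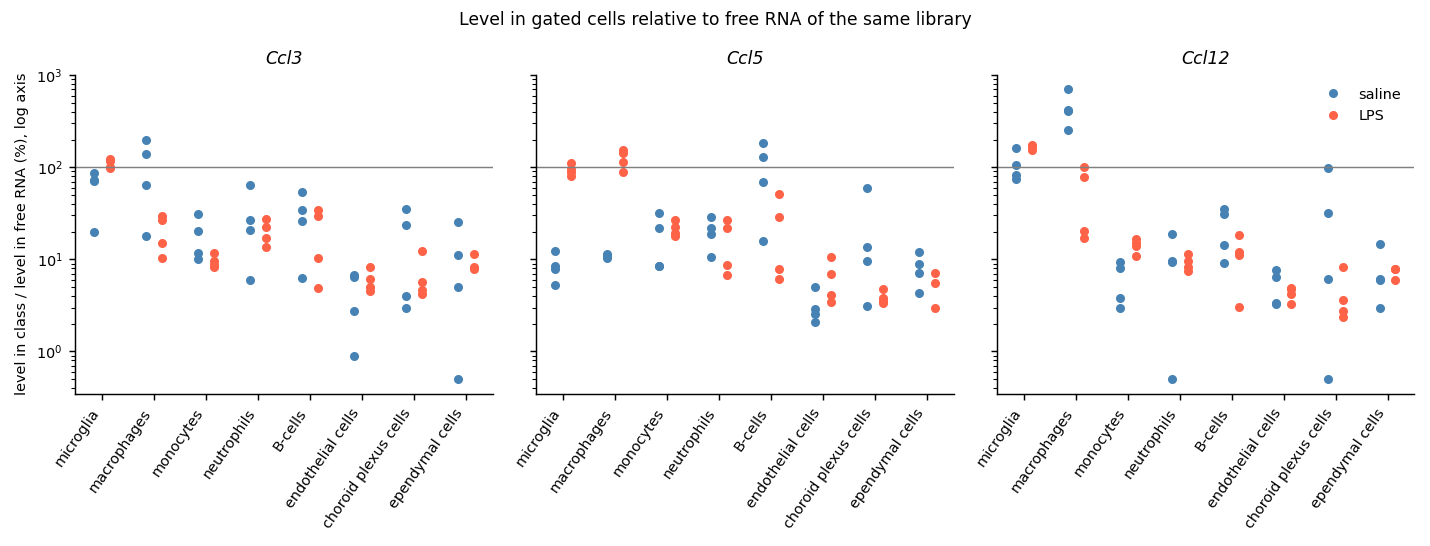
Level of Ccl3, Ccl5 and Ccl12 in 8 classes as a percent of the level in the free RNA of the same library, on a log axis, with 1 point per library, values under 0.5% drawn at 0.5% and a line at 100%. With LPS, microglial Ccl12 lies above the line in all 4 libraries (155% to 174%), and endothelial cells lie at 10.5% or less for all 3 genes.

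In the remaining classes the counts were as follows. Monocytes had 6 members called with LPS, all higher (median 3.88 against -0.01 over all genes; 27.7% of genes called), and neutrophils 5, all higher (20.9% called), of which Ccl2 (3.68 ± 1.03, adjusted p = 0.019) was lost without saline inhibitors 2 (3.76) or LPS inhibitors 2 (3.38), with free RNA subtracted (3.52), at a minimum of 1500 UMIs per cell (3.30) and with the injection as the only term (1.60). The dendritic gate (24.6% called) added rises of Ccl5 (5.77 ± 0.84), Ccl3 (6.47 ± 0.85) and Ccl4 (4.80 ± 1.08, and 4.33 with an adjusted p of 0.053 with DESeq2), while Ccl2 was 2.31 (adjusted p = 0.10). Microglial markers came next after the dendritic gate's own in LPS libraries, and the part of microglial transcripts in its rises was not tested. Among the members called in T-cells (18.9% of genes called), Ccl17 (4.87 ± 0.64), Ccl3 (2.50) and Ccl12 (1.52) rose. NKs (20% called) rose in Ccl12 (2.74, adjusted p = 0.036, and 2.10, adjusted p = 0.0753 with the block), and B-cells (9.79% called) in Ccl3 (3.44), Ccl5 (2.18) and Ccl12 (2.27). Without LPS DMSO 1, Ccl12 was 0.43 in B-cells, -0.35 in T-cells and -0.81 in NKs, so these 3 calls rest on that library. With DESeq2 none of the 3 passed. With free RNA subtracted Ccl12 also lost the call in T-cells (1.07, adjusted p = 0.114) and NKs (2.73, adjusted p = 0.061). Without LPS inhibitors 1 it was 1.25 in T-cells and 1.41 in NKs, and neither was called. Ccl5 of B-cells was lost with DESeq2 (2.10, adjusted p = 0.13), without LPS DMSO 1 (1.41, adjusted p = 0.11) and without LPS inhibitors 2 (1.19, adjusted p = 0.11).

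Among the CC receptors, 11 of 13 could be tested in microglia, 3 rose and 4 fell with LPS (median -0.49), where 57.8% of all genes were called. Ackr1, a decoy receptor, rose by 4.27 on the log2 scale. In macrophages 3 were tested, and Ccr2, the receptor of Ccl2, Ccl7 and Ccl12, fell from 85.9 ± 7.61 to 5.44 ± 1.32 CPM (SD, n = 4). In monocytes Ccr2 fell by 2.07 and Ccr1, a receptor of Ccl3 and Ccl5, rose by 2.62, and in neutrophils Ccrl2, an atypical receptor, rose by 5.39. Between DMSO and inhibitors, Ccrl2 was the 1 of the 3 receptors tested in macrophages that passed (3.38, adjusted p = 0.00018). Of 11 other CC ligands 6 were tested in microglia, where Ccl6 fell from 256 ± 13.2 to 37.4 ± 4.79 CPM, Ccl27a fell by 1.20 and Ccl25 rose by 0.53. NF-kappaB feedback genes rose in microglia with LPS, where 27.3% of all genes did, for 8 of 10 (median 2.01, Bcl3 3.95 and Nfkbiz 3.88, with 1 lower), and interferon-stimulated genes for 9 of 11 (median 2.70, Cxcl10 4.54 and Irf7 3.51).

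As a description with no test, the genes most like each member were sought by Pearson correlation over 110 class-by-library sums, which share libraries and differ in depth. Members were often each other's nearest gene. Ccl3 went with Ccl4 (r = 0.75), Ccl17 with Ccl22 (0.77) and Ccl2 with Ccl7 (0.66). Ccl8 and Ccl24 both went with Fcna (0.81 and 0.74), Ccl5 with AW112010 (0.84) and Ccl12 with Gpr84 (0.71).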

How the data were processed

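The deposited counts are whole numbers of UMIs per gene and barcode, made by the authors with PIPseeker v2.0 and STAR (PIPseq libraries), and no normalization had been applied. The submitters' processing notes also name Seurat 4. Cells were kept at 800 to under 45000 UMIs, 250 to under 6500 genes and under 5% mitochondrial UMIs. Classes came from a gate of at least 4 of 10 markers (3 for dendritic cells and microglia) with a lead of 2 markers over the next class. Doublets were treated by leaving out the 4142 cells that met more than 1 gate (9340 more met none, 2.98% to 4.59% of saline and 10.2% to 13.0% of LPS libraries), and Scrublet (scanpy 1.11.5, 165 automatic calls over all libraries) served as an alternative at 8%.

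UMIs were summed per library and class (at least 10 cells) and tested with edgeR 4.0.16 in R 4.3.3 (filterByExpr, TMM, quasi-likelihood, group means), with Benjamini-Hochberg adjustment over all genes of the class and a threshold of 0.05. DESeq2 1.42.0 was an alternative. Shares were computed at 1500 UMIs per cell and tested with exact permutation (scipy 1.17.1, Python 3.11.15). Promoters came from RefSeq GRCm38.p6, a different build from the authors' GRCm39, and were matched by symbol.

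The labels' batch is the replicate number, and libraries with the same number share a capture day. The correlation of same-numbered libraries' deviations in microglia over 14225 genes was 0.162 to 0.697. All 10 members were named by rule, as were context genes by size of change. From the receptor list, 1 gene is not reported here. The members and lists were chosen with earlier results of these data known.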

Additional observations from a re-analysis of the deposited data

Results flagged for a closer look

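A library was marked where its gap to the nearest of the other 3 libraries of its treatment was large against the range of the 4, in 6 of 60 groups. Chance marks about 1 in 20 where the 4 values are alike and normally spread. Each 4 join DMSO and inhibitor libraries, so this rate is no reference for genes that differ between these. These were saline DMSO 1 in monocytes for Ccl2 (177 CPM, nearest 45.1), Ccl4 (192, nearest 26.7) and Ccl7 (35.3, nearest 4.45). The others were LPS DMSO 1 for microglial Ccl4 (2743, nearest 1072), LPS DMSO 2 for macrophage Ccl5 (6813, nearest 4842) and saline DMSO 2 for macrophage Ccl17 (3.23, nearest 0.509).

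The LPS change differed between DMSO and inhibitor libraries by edgeR's interaction test for 4 values, all with a smaller change in DMSO libraries. In B-cells the difference was -5.38 ± 0.65 (SE) for Ccl3 and -5.24 ± 0.87 for Ccl4 on the log2 scale, where 0.052% of genes were called. In endothelial cells Ccl3 differed by -3.88 ± 0.55 (0.0666% called) and in ependymal cells by -5.01 ± 0.77 (0.0396% called). Ccl3 in B-cells measured 246, 91.9, 9.79, 15.3, 251, 231, 899 and 996 CPM in the library order of the report, with 17 to 66 B-cells per LPS library.

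The LPS change differed from that of microglia, by a test of the difference in 1 fit, for 22 values on the log2 scale, among the 33 pairs of gene and class in which the gene was also tested within that class alone. Outside these pairs, Ccl8 and Ccl24 passed in the joint fit of monocytes, where their counts were too low for a test within the class. In macrophages these were Ccl24 (0.76), Ccl2 (-3.71), Ccl7 (-1.61), Ccl12 (-4.49), Ccl5 (-0.48), Ccl3 (-3.62) and Ccl4 (-2.71). In monocytes they were Ccl7 (3.06), Ccl5 (-3.73), Ccl3 (-2.12) and Ccl4 (-1.37), where 19.8% of genes were called, and in neutrophils Ccl2 (-1.40), Ccl5 (-4.37), Ccl3 (-1.38) and Ccl4 (-1.85), where 17.6% were. In the dendritic gate they were Ccl17 (-1.30), Ccl5 (-2.81) and Ccl12 (11.9), where 6.87% were called and the Ccl12 value is no bound because its saline libraries were at 0. In endothelial cells they were Ccl12 (-1.54), Ccl5 (-3.29), Ccl3 (-1.22) and Ccl4 (-1.14), where 31.7% were called. The joint fit had no term for dissociation by class, and its SE does not carry the full spread between mice. Free RNA was not subtracted in the joint fit. For Ccl2 in neutrophils and Ccl17 in the dendritic gate the mean difference over libraries had the opposite sign (0.29, exact p = 0.714, and 0.72, exact p = 0.514). An exact permutation over libraries reached its smallest p of 0.0286, unadjusted and not passed after adjustment over the 33, among these 22 values for Ccl2, Ccl12, Ccl3 and Ccl4 in macrophages, Ccl7, Ccl5 and Ccl3 in monocytes, Ccl5 and Ccl3 in neutrophils and Ccl12 and Ccl5 in endothelial cells.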

How the results depend on the processing

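With DESeq2, RLE or total-UMI scaling, no filter on low counts, additive terms, a stricter gate, Scrublet removal, free RNA subtraction or a minimum of 1500 UMIs per cell, the number of members called with LPS in microglia, macrophages, monocytes and neutrophils stayed within 1.5 times of its value. Scaling by total UMIs and adding the cells of no class to the microglia were chosen after seeing the data. Neutrophils had 3 instead of 5 members called with LPS among inhibitor libraries only, and microglia 0 instead of 3 between DMSO and inhibitors among LPS libraries only. The 4 differences of the LPS change between DMSO and inhibitors became 7 with total-UMI scaling, 24 with no filter, 2 with Scrublet removal and 8 with the replicate block; the cause was not tested. Macrophage Ccl2 with LPS reversed to -0.32 (total UMIs), -0.021 (no filter), -0.34 (injection as only term), -0.0042 (additive terms), -0.0054 (free RNA) and -0.013 (1500 UMIs), and macrophage Ccl7 to -0.024 (injection as only term), none of them called. Apart from library exclusions, 831 of 903 values for single members kept direction and side of the threshold, and 574 of 634 with 1 library left out.

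With capture day as a replicate block, 77 of 83 single results were unchanged in call, 1 was lost and 5 were gained, as printed beside them. Leaving out 1 library (a lone library being assumed to vary like the other groups) gave 10 to 10 members called with LPS in microglia, 7 to 8 in macrophages (6 with all libraries, where Ccl22 is not tested), 6 to 6 in monocytes and 4 to 5 in neutrophils. Between DMSO and inhibitors it gave 1 to 4 in microglia, lowest without LPS inhibitors 1, and 4 to 4 in macrophages. The differences of the LPS change ranged from 4 to 9, with 9 without saline DMSO 1 and 7 without LPS DMSO 1, and the 22 class differences from 17 to 23. Directions that turned with 1 library left out ranged from -0.27 to 0.27 for macrophage Ccl2, -0.38 to 0.23 for macrophage Ccl12, -0.35 to 1.93 for T-cell Ccl12, -0.24 to 0.21 for T-cell Ccl5 and -0.81 to 4.83 for NK Ccl12. Low counts limit Ccl17 and Ccl22 in saline microglia, Ccl24 in LPS microglia and Ccl8 in microglia of both treatments. Cell number limits the dendritic gate, where saline libraries hold 8 to 27 cells. It also limits leptomeningeal cells, with 12 to 29 per saline and 3 to 26 per LPS library, where LPS inhibitors 1 (3 cells) was left out.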
